A study of Mus musculus with 27 samples.

Results

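The comparison described here asks for which genes the effect of deleting Gpx4 in mouse gastric organoids differed between passage 5 and passage 10. It is the genotype by passage interaction, the knockout minus wild-type difference at passage 10 minus the same difference at passage 5, and it draws on 12 of the 27 libraries of the series, 3 in each of 4 groups. The wild-type organoids, titled Mist1+ organoids, came from Mist1Cre/ERT2;RFPLSL mice, and the knockout organoids, titled Gpx4 KO_Mist1+ organoids, from Gpx4F/F;Mist1Cre/ERT2;RFPLSL mice, both sampled at passages 5 and 10. All 4 groups carry the Mist1-driven, inducible Cre and the red fluorescent reporter (RFP). Adult stomach was dissociated and RFP+ cells were collected by flow cytometry, so the lines descend from cells in which Mist1-driven Cre had been active. They were embedded in Matrigel and kept in a proliferation medium. How and when the Cre was induced is not given. The labels do not say how many mice or lines stand behind each group, nor whether the 3 libraries of a group were separate cultures, so the p-values measure the spread between libraries, which may be technical. No date or batch is given, so whether the 2 genotypes of a passage were grown and harvested together is not known. Whatever else differed between the cultures of passages 5 and 10 cannot be told apart from passage. A shift shared equally by both genotypes of a passage would cancel in the interaction. A state particular to any of the 4 groups would enter the interaction directly, and this was not tested.

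Gpx4 is the selenium-containing glutathione peroxidase that reduces lipid hydroperoxides in membranes, and cells that lose it are prone to ferroptosis, an iron-dependent death by lipid peroxidation. Mist1, the product of Bhlha15, is a transcription factor of professional secretory cells such as the chief cells at the base of gastric corpus glands, where a Mist1-Cre allele also marks isthmus cells that can act as progenitors. Gastric organoids grow from single epithelial cells, are split at each passage, and can drift in lineage, stress and metabolic programs over serial culture.

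Each of the 12 libraries had between 13805585 and 19608956 counts, and 14524 genes passed the filter on low counts and were tested. A level is a gene's count for every 1e6 counts of its library after TMM scaling (CPM), given for replicates 1, 2 and 3 in that order or as mean ± SD (n = 3), and differences are log2 fold changes ± SE. Replicates were close. The median SD of log2 CPM within a group was 0.0502 to 0.0565 over the 9211 genes with a mean of at least 10 CPM, and differences down to 0.0699 on the log2 scale passed the test. Gpx4 (chromosome 10, 80047166 to 80056439 in GENCODE M21, build GRCm38, as for all gene positions here) measured 130.0, 122 and 132 CPM in the wild type and 101, 98.0 and 97.6 in the knockout at passage 5, against 110.4, 123 and 114 and 100.1, 97.1 and 87.6 at passage 10. Every knockout library was below every wild-type library of its passage, but the transcript was reduced only in part. Counts per gene do not show which exons were read. Its reduction did not differ detectably between the passages (interaction 0.087 ± 0.056, adjusted p = 0.306), although without the third knockout library of passage 10 it passed the test (0.15 on the log2 scale, adjusted p = 0.0479). The epithelial markers Epcam, at 403 to 485 CPM, and Cdh1, at 1268 to 1439 CPM, were high in every library. Markers of fibroblasts summed to 0.531 to 2.04 CPM, of immune cells to 1.64 to 4.62 and of endothelium to 0.209 to 1.02, and Dcn, Lum and Emcn were at 0 in all 12 libraries. Tuft cell markers summed to 250 to 256 CPM in the wild type and 143 to 149 in the knockout at passage 5. At passage 10 the sums were 196 to 205 and 121 to 127. Of these 8 markers only 2, Trpm5 and Avil, passed the filter. Dclk1, Pou2f3, Gnat3 and Alox5ap did not, and Il25 and Gfi1b were at 0 in all 12 libraries. The sums thus rest on few genes. The part of tuft cells in the results was not tested. As in any bulk measurement, fewer cells of a type and less RNA per cell cannot be told apart.

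The knockout effect differed between passages for 2952 genes (20.3% of those tested) in edgeR's quasi-likelihood test with Benjamini-Hochberg adjustment at 0.05. The knockout minus wild-type difference moved upward from passage 5 to passage 10 for 1610 genes (11.1%) and downward for 1342 (9.24%). Below, upward and downward refer to this difference, whichever genotype changed. A difference of 2-fold or more was found for 198 genes upward (1.36%) and 200 downward (1.38%). At each passage on its own, the knockout differed from the wild type in many more genes, 7048 (48.5%) at passage 5, of which it was higher in 3440 (23.7%) and lower in 3608 (24.8%), and 7689 (52.9%) at passage 10, with 3834 (26.4%) higher and 3855 (26.5%) lower. From passage 5 to 10, 2692 genes (18.5%) changed in the wild type, 1305 up (8.99%) and 1387 down (9.55%), and 3222 (22.2%) in the knockout, 1742 up (12.0%) and 1480 down (10.2%). Among the 2952 genes, 795 had a called knockout effect at passage 10 alone and 611 at passage 5 alone, 674 had an effect in the same direction that was larger at passage 10, and 511 one that was smaller. For 321 genes the knockout effect was called at both passages in opposite directions, and for 40 it was called at neither. Read by genotype, 1147 of the 2952 changed between the passages only in the knockout by their own call, 838 only in the wild type, 559 in opposite directions in both and 131 in the same direction in both. For 277 no change between the passages was called in either genotype. A fit that also took in the other 9 organoid libraries called 897 genes, 891 of them among the 2952. Wild-type passage 15 is among those 9, and its median SD of log2 CPM was 0.212.

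**Figure D1:**
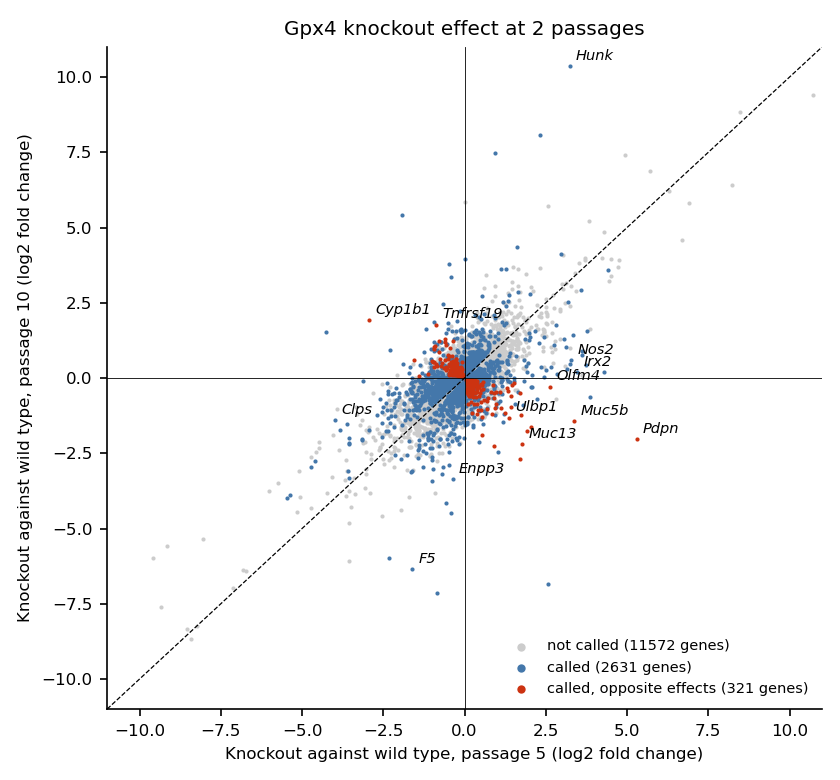
Knockout effect at passage 10 (vertical axis) against passage 5 (horizontal axis), both as log2 fold change of knockout against wild type, with 1 point for each of the 14524 genes. Points on the dashed diagonal have the same effect at both passages; the 321 red points lie in the quadrants where a called effect changed sign, with Pdpn, Muc5b and Muc13 at the lower right and Cyp1b1 and Tnfrsf19 at the upper left. The height of Hunk depends on the fit's prior count, because no wild-type library of passage 10 held a read of it.

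The share of genes called depends on their level, which the lists differ in. Among the 9211 genes with a mean of at least 10 CPM, 26.6% were called, 14.6% upward and 12.0% downward. With at least 50 CPM the share was 35.3%, 18.7% upward and 16.5% downward, and with at least 100 CPM it was 43.3%, 24.0% and 19.2%. Many members of the gene lists are abundant, so the counts given for the lists are to be read against these shares as well as against 11.1% and 9.24%. List counts from the fit with all 21 libraries have another background. That fit called 473 of 15115 genes upward and 424 downward.

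The secreted gel-forming mucin Muc5b (chromosome 7, 141839070 to 141873084) had one of the largest reversals. It measured 14.0, 12.8 and 12.4 CPM in the wild type and 135, 134 and 137 in the knockout at passage 5. At passage 10 the wild type held 22.9, 22.0 and 23.9 and the knockout 9.00, 7.51 and 8.96. The knockout was thus above every wild-type library at passage 5 and below every one at passage 10, with effects of 3.37 ± 0.061 and -1.43 ± 0.085 and an interaction of -4.80 ± 0.10 (adjusted p = 7.82e-106). Most of this lay in the knockout, where Muc5b fell by 3.99 on the log2 scale between passages, while it rose by 0.81 in the wild type. The membrane-bound mucin Muc13 went the same way at a lower level, from 1.54, 2.09 and 2.57 CPM in the wild type and 7.42, 7.32 and 6.36 in the knockout to 5.19, 5.27 and 5.46 and 1.60, 0.991 and 0.875. Its groups did not overlap at either passage and its interaction was -3.97 ± 0.29 (adjusted p = 2.24e-28).

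Among the 19 tested genes of the mucus and secretion list, the interaction was upward for 3 and downward for 10, with a median of -0.35 against 0.012 over all genes. With all 21 organoid libraries in the fit, 1 and 8 of them were called. Tff2, the trefoil peptide of mucous neck cells, stood at 95.7 ± 0.64 CPM in the knockout against 24.6 ± 1.9 in the wild type at passage 5. At passage 10 it was at 27.1 ± 2.8 against 19.2 ± 0.47 CPM, and its interaction was -1.47 ± 0.094. Galnt7, which adds the first sugar of mucin O-glycans, also moved downward (-0.40 ± 0.030). Outside the rule for named genes, and picked after their values were seen, the secretory regulators Spdef (-0.67 ± 0.12) and Creb3l1 (-0.69 ± 0.066) and the disulphide isomerase of mucin folding Agr2 (-0.59 ± 0.066) lay on the same side. Clca1, a secreted goblet cell protein that processes mucus, went against the list. It measured 2159, 2172 and 2151 CPM in the wild type and 240.0, 239 and 246 in the knockout at passage 5, and 3196, 3189 and 3230.3 and 785, 777 and 768 at passage 10. The deficit in the knockout was present at both passages and smaller at the later one, with an interaction of 1.12 ± 0.025 (adjusted p = 3.09e-105).

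**Figure D2:**
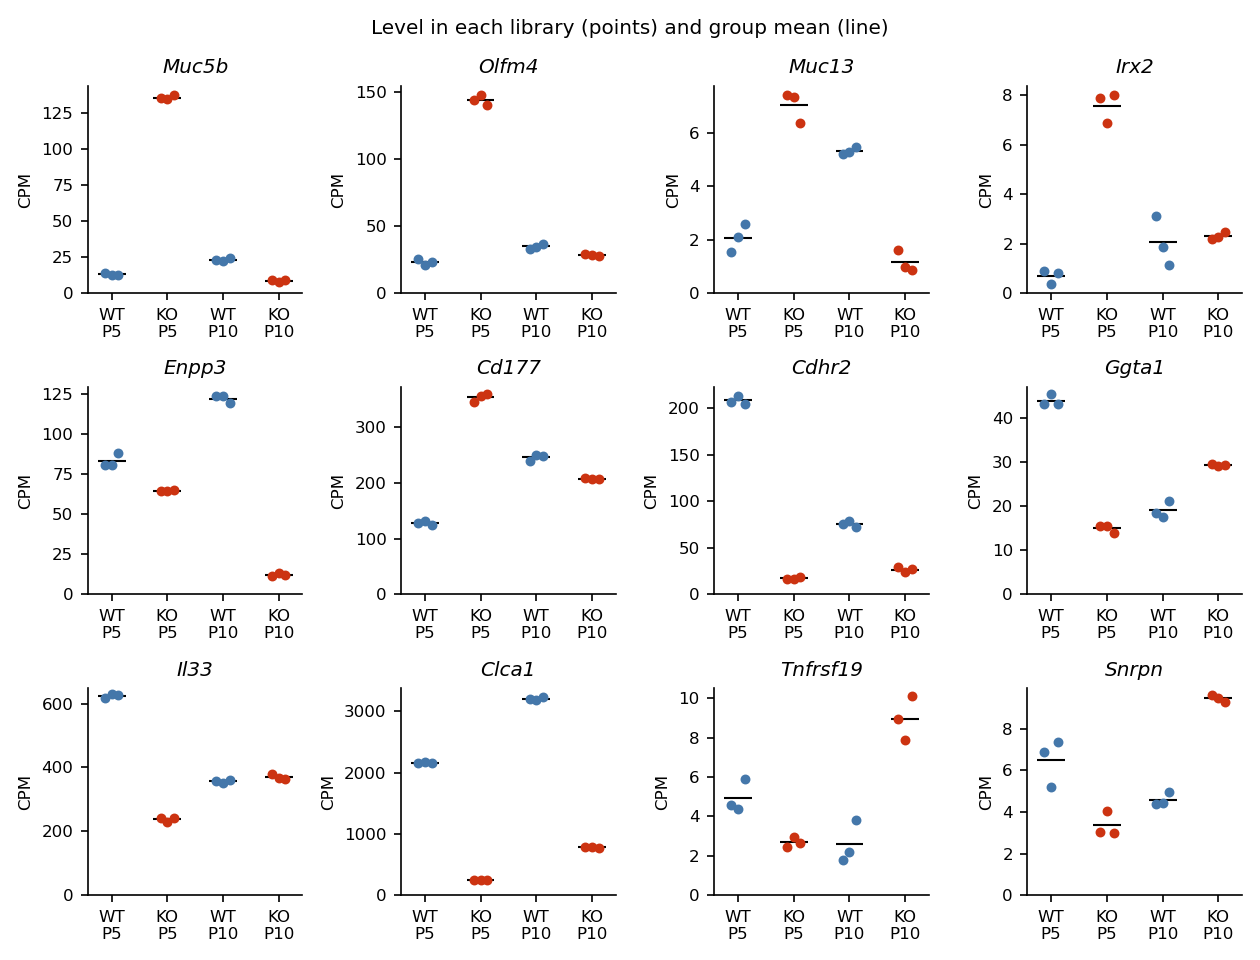
CPM in each library (points) and group mean (line) of 12 genes in the wild type (WT, blue) and the knockout (KO, red) at passages 5 and 10 (P5, P10). In the panels of Muc5b and Olfm4 the knockout stands far above the other 3 groups at passage 5 only; in those of Tnfrsf19 and Snrpn it stands above them at passage 10.

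Olfm4, a secreted marker of intestinal stem cells and of intestinal-type differentiation in the stomach (chromosome 14, 79984081 to 80023139), measured 25.0, 21.2 and 23.0 CPM in the wild type and 144, 148 and 140.2 in the knockout at passage 5. By passage 10 the values were 33.1, 34.5 and 36.5 and 29.1, 28.7 and 27.7. The excess in the knockout at passage 5 gave way to a small deficit, and the interaction was -2.93 ± 0.081 (adjusted p = 8.72e-88). Apoa1, the main protein of high-density lipoprotein and an enterocyte product, was near equal at passage 5, with 751 ± 3.0 CPM in the wild type and 706 ± 16.7 in the knockout. At passage 10 it reached 1057 ± 10.6 in the wild type and 516 ± 17.8 in the knockout (interaction -0.95 ± 0.028). The brush-border protein Cdhr2 stood at 207, 213 and 205 CPM in the wild type and 16.5, 16.1 and 18.3 in the knockout at passage 5. At passage 10 these were 75.1, 78.4 and 72.4 and 28.6, 23.3 and 26.6, so the knockout remained lower while the gap narrowed (2.10 ± 0.079). Of 11 tested intestinal genes, 2 moved upward and 5 downward (2 and 3 with all 21 libraries in the fit). Their median of -0.95 rests on few genes and was -0.046 with no filter on low counts. Villin, encoded by Vil1, was one of the 2 that moved upward (0.30 ± 0.033). The intestinal master factor Cdx2, named after its value was seen, held 46, 28, 61 and 5 counts over the 3 libraries of wild type and knockout at passage 5 and wild type and knockout at passage 10, in that order.

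Transcription factors that set gastric and intestinal identity also shifted. Irx2, a homeobox factor, measured 0.870, 0.349 and 0.811 CPM in the wild type and 7.86, 6.86 and 7.98 in the knockout at passage 5. At passage 10 the values were 3.13, 1.86 and 1.14 and 2.17, 2.27 and 2.46, and the 2 groups overlapped. The interaction was -3.27 ± 0.37 (adjusted p = 3.67e-14). Gata6, an endodermal factor, fell in the knockout from 35.7 ± 0.36 to 22.0 ± 1.6 CPM while the wild type stayed at 47.8 ± 0.83 and 45.4 ± 2.4 (interaction -0.61 ± 0.088). Hnf4a, which drives epithelial and intestinal programs, and the pioneer factor Foxa1 showed smaller downward shifts of -0.29 ± 0.037 and -0.23 ± 0.037, and the epithelial factor Elf3 an upward one of 0.19 ± 0.034. In all, 9 of 24 tested identity factors moved downward and 5 upward; with all 21 libraries in the fit, 6 and 2 did.

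Of 13 genes of stem and isthmus cells, 5 moved upward, 2 downward and the other 6 were not called; with all 21 libraries in the fit, 3 and 0 were called. Tnfrsf19, known as Troy, a receptor found on slow-cycling gastric chief and stem cells (chromosome 14, 60963875 to 61046490), had 4.55, 4.39 and 5.88 CPM in the wild type and 2.42, 2.96 and 2.64 in the knockout at passage 5. The values at passage 10 were 1.77, 2.18 and 3.80 and 8.94, 7.86 and 10.1. The order of the genotypes reversed with no overlap at either passage, and the interaction was 2.66 ± 0.26 (adjusted p = 3.59e-18). Aqp5, a water channel of antral stem cells and of mucous neck cells, stood at 8.15 ± 0.38 CPM in the wild type and 25.4 ± 0.30 in the knockout at passage 5, and at 7.10 ± 0.35 and 51.5 ± 2.6 at passage 10. Its excess in the knockout grew by 1.22 ± 0.14 on the log2 scale. Lgr4, a receptor for R-spondins, was the most strongly called member with a downward shift (-0.33 ± 0.040).

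Wnt targets gave 8 upward calls among 14 tested and 0 downward, with a median of 0.24. With all 21 libraries in the fit, 3 were called. The list's median change between passages was -0.345 in the wild type and -0.0635 in the knockout. Axin2, a feedback inhibitor and standard readout of Wnt signalling, measured 27.1, 25.0 and 27.8 CPM in the wild type and 11.5, 13.8 and 14.6 in the knockout at passage 5. Passage 10 gave 14.7, 13.6 and 14.0 and 13.9, 12.6 and 11.4. The wild type fell to the level of the knockout, which did not change detectably, and the interaction was 0.84 ± 0.13 (adjusted p = 7.02e-08). Lgr5, the stem cell receptor for R-spondins, was higher in the knockout at both passages, at 45.5 ± 2.3 CPM against 19.6 ± 2.2 and at 41.7 ± 2.3 against 12.2 ± 1.3. The wild type fell between the passages (-0.68 ± 0.088) while the knockout did not change detectably. The interaction was 0.55 ± 0.11, and the adjusted p was 0.097 in the least favourable alternative. The cyclin gene Ccnd1 (0.24 ± 0.026) and Cd44, a surface receptor of stem cells (0.19 ± 0.037), shifted by less.

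Genes of the differentiated gastric lineages did not share 1 direction. In pit cells, which line the stomach surface, 6 of 12 tested genes moved upward and 3 downward (5 and 1 with all 21 libraries in the fit), and the list's median of 0.035 became -0.055 with no filter on low counts. Psca, a surface antigen of pit cells, was lower in the knockout at both passages, with effects of -2.36 ± 0.036 and -1.31 ± 0.033. The pit cell mucin Muc5ac was at 162 ± 1.2 CPM in the wild type and 56.6 ± 1.9 in the knockout at passage 5, and at 278 ± 2.9 and 187 ± 12.0 at passage 10. The deficits in both genes shrank, with interactions of 1.04 ± 0.050 for Psca and 0.94 ± 0.048 for Muc5ac. Gkn1, the secreted gastrokine, followed with 0.59 ± 0.033, and Mucl3 went the other way (-0.66 ± 0.044).

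Chief cell genes were few, with 5 of 10 tested, 1 upward and 3 downward. Bhlha15, which encodes Mist1 itself (chromosome 5, 144190286 to 144194441), had 4.95, 6.13 and 5.2 CPM in the wild type and 10.8, 9.76 and 9.78 in the knockout at passage 5. Passage 10 had 7.02, 6.49 and 6.71 and 6.13, 5.66 and 5.52. The knockout was higher at passage 5 and lower, without a call (adjusted p = 0.173), at passage 10, with an interaction of -1.12 ± 0.20 (adjusted p = 7.38e-07). Pgc, the precursor of pepsin C, moved the opposite way (1.31 ± 0.13), since the knockout rose from 9.25 ± 1.1 to 16.8 ± 1.3 CPM and the wild type fell from 29.8 ± 2.2 to 21.5 ± 0.61. The vesicle protein Rab3d, a Mist1 target in secretory cells, shifted downward (-0.42 ± 0.042). Mucous neck cell and metaplasia (SPEM) genes gave 7 upward calls and 1 downward, Tff2, among 10; with all 21 libraries in the fit these were 2 and 1. Of 5 parietal cell genes tested, 3 moved upward and 1 downward (2 and 1 with all 21 libraries in the fit). The one that moved downward was Atp4a, the catalytic subunit of the acid pump that defines parietal cells, at 0.842 ± 0.19 CPM in the wild type and 1.89 ± 0.25 in the knockout at passage 5 and 1.87 ± 0.17 and 1.55 ± 0.077 at passage 10 (-1.43 ± 0.44). The sodium-proton exchanger Slc9a4 was the most strongly called of those that moved upward (0.46 ± 0.034), and Atp4b, the other subunit of the pump, did not pass the filter. Of 4 tested genes of squamous epithelium, 3 moved upward, among them Sprr1a, a cornified-envelope precursor, at 132 ± 2.9 CPM in the wild type and 30.2 ± 2.5 in the knockout at passage 5 and 109 ± 8.0 and 60.6 ± 3.3 at passage 10 (1.29 ± 0.068). Krt5, Krt14 and Trp63, which define basal squamous cells, did not pass the filter. For Cnfn, another cornified-envelope gene, the deficit in the knockout shrank by 1.92 ± 0.15, from 48.7 ± 2.1 against 8.00 ± 0.77 CPM to 11.9 ± 1.4 against 7.43 ± 0.51.

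**Figure D3:**
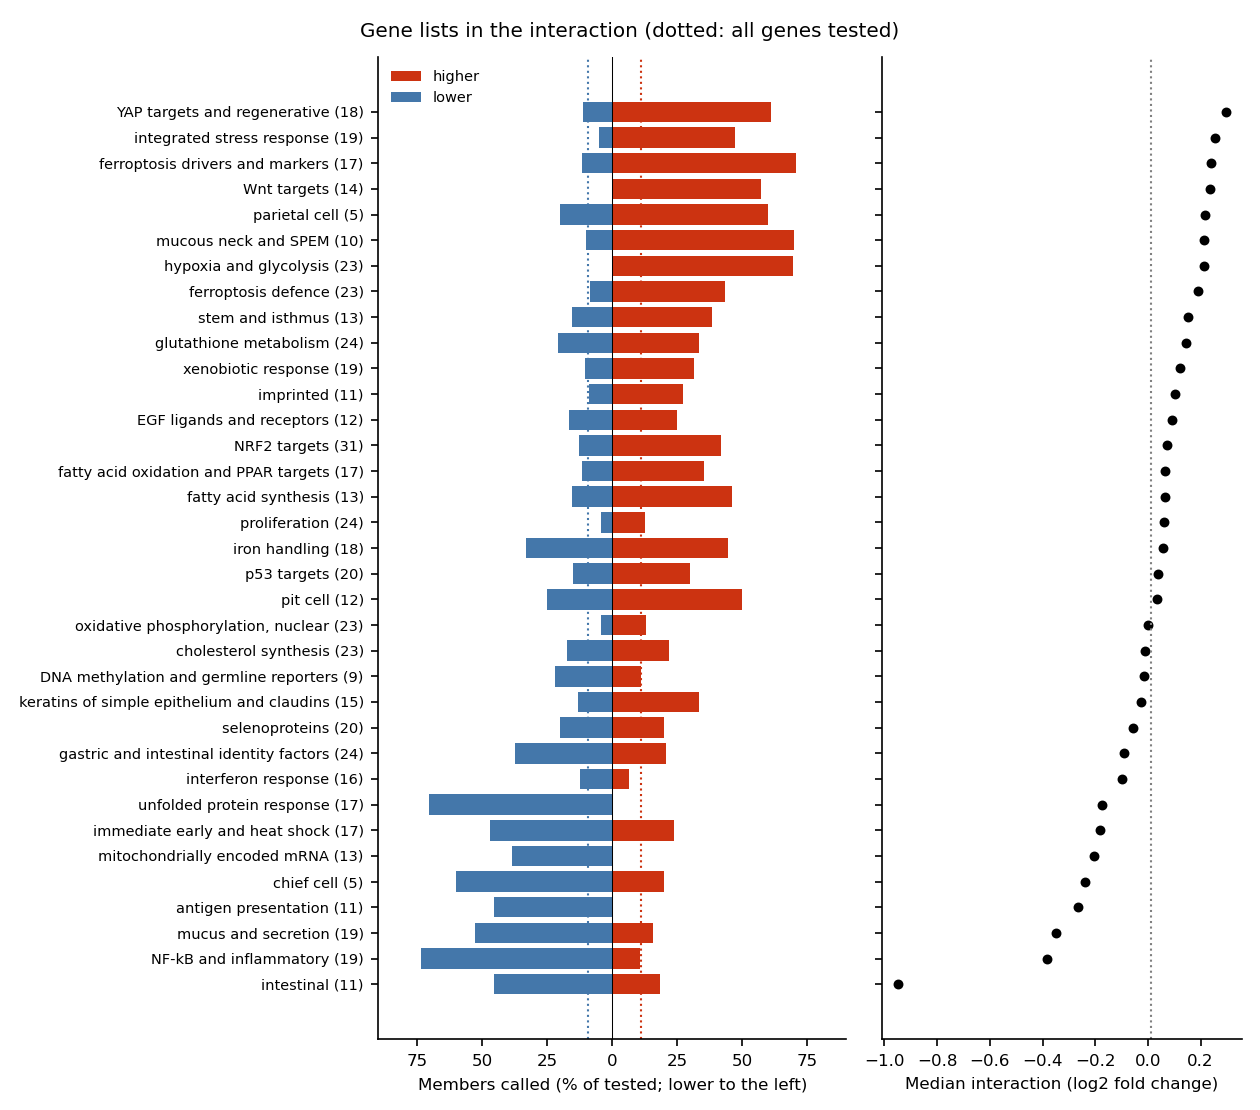
For each gene list with at least 5 genes tested (number tested in parentheses), the percent of tested members called upward (red, to the right) and downward (blue, to the left), and the median interaction (right panel, log2 fold change). Dotted lines give the same over all 14524 genes, 11.1% upward, 9.24% downward and a median of 0.012; NF-kB and unfolded protein response genes lie to the left and hypoxia and YAP genes to the right.

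For genes of ferroptosis, the pathway that Gpx4 restrains, the knockout effect moved upward more often than downward. Of 17 tested drivers and markers, 12 were called upward and 2 downward (median 0.24). Of 23 defence genes, Gpx4 included, 10 and 2 were called (median 0.19). The drivers' median change between passages was -0.0478 in the wild type and 0.0235 in the knockout. For the defence genes it was -0.119 and -0.0141. With all 21 libraries in the fit, 4 and 0 drivers and 5 and 0 defence genes were called. Slc7a11, the cystine importer that feeds glutathione synthesis, measured 611, 616 and 615 CPM in the wild type and 481, 464 and 479 in the knockout at passage 5. By passage 10 these were 439, 425 and 443 and 453, 458 and 485. The wild type fell between the passages and the knockout did not change detectably, so a deficit of -0.37 ± 0.022 became a small excess of 0.095 ± 0.022. The interaction was 0.47 ± 0.031, with an adjusted p of 1.48e-32 that became 0.304 with all 21 libraries in the fit. Fth1, the ferritin heavy chain that stores iron, moved alike (0.58 ± 0.037), from 847 ± 14.9 CPM in the wild type and 612 ± 32.6 in the knockout to 729 ± 10.8 and 788 ± 21.2. The desaturase Scd2, which makes the monounsaturated fatty acids that resist peroxidation, did not differ detectably at passage 5 (-0.013 ± 0.014) and was higher in the knockout at passage 10 (0.30 ± 0.014). Mboat1, which loads such fatty acids onto phospholipids, shifted by 0.32 ± 0.032, and Gss, the second enzyme of glutathione synthesis, by -0.12 ± 0.040, a call lost in 9 of 23 alternatives.

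On the side of the drivers, the transferrin receptor Tfrc, which brings iron into the cell, had 168, 182 and 174 CPM in the wild type and 237, 242 and 229 in the knockout at passage 5, and 177, 169.7 and 181 and 314, 317 and 329 at passage 10. Its excess in the knockout grew from 0.43 ± 0.029 to 0.86 ± 0.028 (interaction 0.43 ± 0.041). Ncoa4, the receptor that delivers ferritin to the lysosome, stayed lower in the knockout at both passages, with a smaller gap at passage 10 (0.38 ± 0.042). Por, a reductase that supplies electrons to lipid peroxidation, shifted by 0.32 ± 0.041, and the zinc and iron importer Slc39a14 by -0.38 ± 0.046. Chac1, a glutathione-degrading enzyme used as a ferroptosis marker and named here after its value was seen, was at 3.35 ± 0.66 CPM in the wild type and 3.25 ± 0.49 in the knockout at passage 5. Later, at passage 10, the means were 2.18 ± 0.33 and 4.58 ± 0.33 (interaction 1.10 ± 0.29). Iron handling genes overall split, 8 upward and 6 downward of 18 (2 and 2 with all 21 libraries in the fit). Steap4, a metalloreductase induced in inflammation, made the largest downward shift of them, from 58.5 ± 2.4 CPM in the knockout against 20.5 ± 0.89 in the wild type at passage 5 to 29.7 ± 0.86 against 29.9 ± 0.90 at passage 10 (-1.53 ± 0.093). The duodenal iron reductase Cybrd1 moved upward (0.64 ± 0.042).

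NRF2 targets, which answer oxidants and electrophiles, gave 13 upward and 4 downward calls among 31, and glutathione genes 8 and 5 among 24. With all 21 libraries in the fit these were 5 and 4, and 2 and 1. The median over the NRF2 list was 0.071. Aldh3a1, an aldehyde dehydrogenase, did not differ detectably between genotypes at passage 5, at 576 ± 9.5 CPM in the wild type and 577 ± 7.0 in the knockout, and separated at passage 10, at 783 ± 7.2 and 512 ± 2.4 (-0.61 ± 0.029). The glutathione transferases Gsta3 (-0.53 ± 0.032) and Gstm1 (-0.48 ± 0.039) also moved downward, whereas Gclm, the modifier subunit of the enzyme that starts glutathione synthesis, moved upward (0.37 ± 0.046). Selenoproteins, the family to which Gpx4 belongs, split evenly, with 4 upward and 4 downward of 20 (0 and 2 with all 21 libraries in the fit). Selenop, the secreted carrier of selenium, was the most strongly called of them. It measured 185, 177 and 189 CPM in the wild type and 232, 215 and 229.7 in the knockout at passage 5, and 236, 235 and 240.3 and 136, 126 and 129 at passage 10. The knockout libraries were above the wild type at passage 5 and below it at passage 10, and the interaction was -1.15 ± 0.043 (adjusted p = 3.67e-65). Gpx2, the gastrointestinal glutathione peroxidase, was lower in the knockout at both passages, and its deficit shrank by 0.40 ± 0.027. Txnrd1, the cytosolic thioredoxin reductase, moved upward by 0.29 ± 0.029 and Selenos, a selenoprotein of the endoplasmic reticulum, downward by -0.46 ± 0.058.

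Hypoxia and glycolysis genes shifted in 1 direction. Of 23 tested, 16 were called upward (69.6%) and 0 downward, with a median of 0.21; with all 21 libraries in the fit, 6 were called upward and 0 downward. The list's median knockout effect was 0.20 at passage 5 and 0.42 at passage 10. Its median change between passages was -0.15 in the wild type and 0.020 in the knockout. Pgam1, the glycolytic phosphoglycerate mutase, measured 279, 286 and 276 CPM in the wild type and 301, 291 and 286 in the knockout at passage 5, where the 2 groups differed little. At passage 10 it measured 246, 251 and 234 and 389, 382 and 391, with every knockout library higher, and the interaction was 0.61 ± 0.036 (adjusted p = 3.76e-38). Pgk1, phosphoglycerate kinase, was higher in the knockout at both passages, with 1573 ± 22.6 CPM against 1358 ± 12.2 and 1618 ± 20.2 against 1143 ± 9.0 (0.29 ± 0.024). Pkm (0.24 ± 0.022) and Eno1 (0.23 ± 0.025), which carry out the last steps of glycolysis, moved alike.

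**Figure D4:**
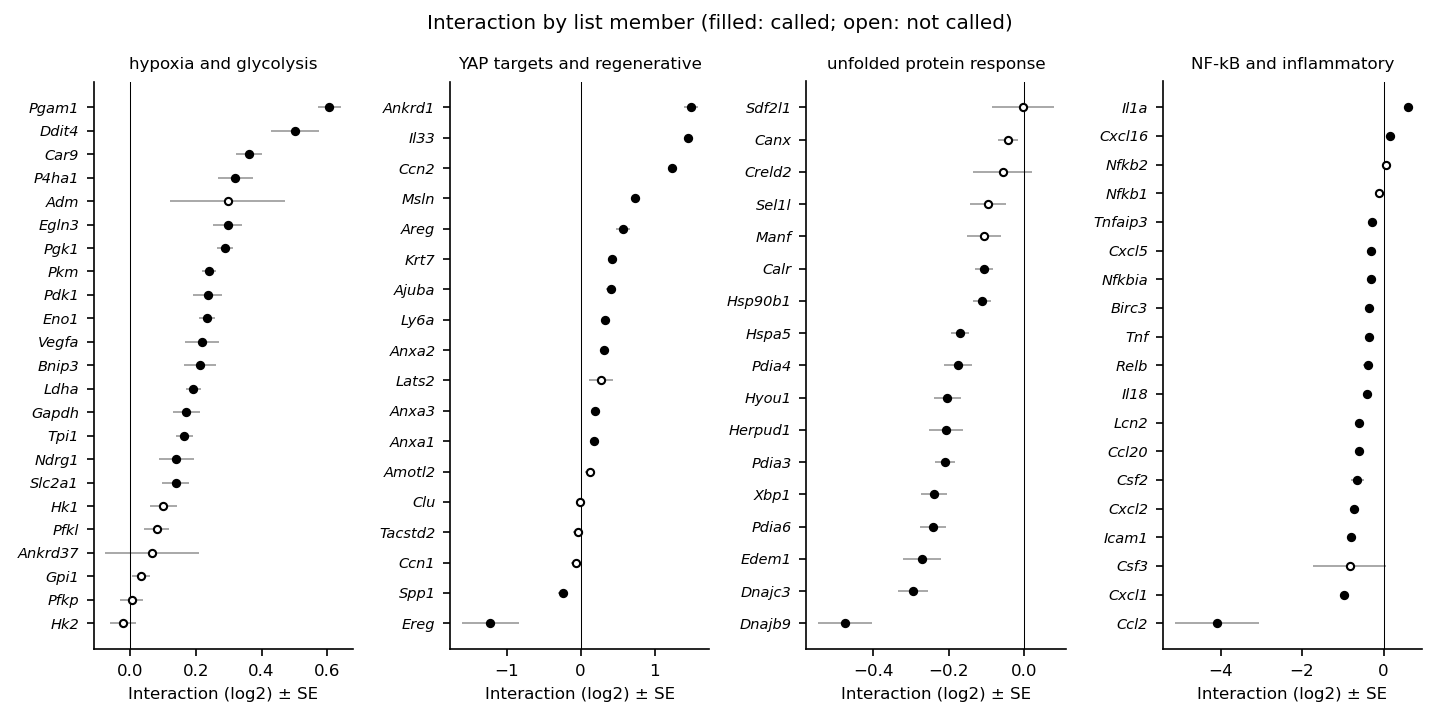
Interaction of each tested member (points, log2 fold change; bars, ± SE) of 4 gene lists, with called members filled and others open. All filled points of the hypoxia and glycolysis list lie to the right of 0 and all of the unfolded protein response list to the left; the axes differ between panels, and Ccl2 at the left of the NF-kB panel rests on 3 to 80 counts per group.

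The unfolded protein response, which raises chaperones when folding in the endoplasmic reticulum is overloaded, moved the other way, with 0 upward and 12 downward calls among 17 (70.6%) and a median of -0.17. With all 21 libraries in the fit, 3 were called downward. The shifts were small and the levels high. Hspa5, the main chaperone of the compartment, known as BiP, measured 1297, 1309 and 1291 CPM in the wild type and 1807, 1786 and 1801 in the knockout at passage 5. Passage 10 gave 1398, 1381 and 1392 and 1702, 1692 and 1737. The knockout was higher at both passages and its excess went from 0.47 ± 0.017 to 0.30 ± 0.017 (interaction -0.17 ± 0.023, adjusted p = 2.33e-10). Pdia3 (-0.21 ± 0.026) and Pdia6 (-0.24 ± 0.034), which form disulphide bonds, and the co-chaperone Dnajc3 (-0.29 ± 0.040) shifted by similar amounts.

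The promoters of this list's genes were searched for the endoplasmic reticulum stress element, to which ATF6 and NF-Y are known to bind. It is spelled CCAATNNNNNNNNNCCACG and was sought on both strands in RefSeq windows of 300 bases (250 before to 50 after the start of transcription, build GRCm38.p6). It was present in 39 of 32851 windows (0.119%), in 7 of 15 list members with a window and in 5 of the 11 that were called. Canx and Creld2 held it without being called. This motif and those given for later lists were chosen after the lists' values were seen, and a match shows no binding. The lists gather genes of the pathways these factors serve. A share of matches above that of all windows was thus set in advance and says nothing about the interaction. Shares of windows and of genes are also not the same measure. The 250 bases before the start of Hspa5 (chr2:34771840-34772089, + strand) and Pdia6 (chr12:17266339-17266588, + strand) are shown with the match in capitals, because both genes had lower interactions and 1 match each.
Hspa5: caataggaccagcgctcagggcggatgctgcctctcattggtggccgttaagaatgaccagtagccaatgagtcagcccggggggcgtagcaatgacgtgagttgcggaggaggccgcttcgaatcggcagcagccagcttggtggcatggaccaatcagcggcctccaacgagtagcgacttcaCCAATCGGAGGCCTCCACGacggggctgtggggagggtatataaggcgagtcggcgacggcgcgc
Pdia6: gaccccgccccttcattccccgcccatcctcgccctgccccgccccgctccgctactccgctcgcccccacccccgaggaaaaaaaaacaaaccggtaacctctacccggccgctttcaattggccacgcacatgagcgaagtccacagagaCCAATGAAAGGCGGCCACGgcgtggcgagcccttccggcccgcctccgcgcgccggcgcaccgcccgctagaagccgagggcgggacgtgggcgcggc

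The integrated stress response, which raises amino acid synthesis and transport through ATF4, gave 9 upward calls and 1 downward among 19 (median 0.26; 4 and 0 with all 21 libraries in the fit). The enzymes of serine and proline synthesis Psat1, Phgdh and Aldh18a1 led it with the cystine importer Slc7a11. Psat1 stood at 280.4, 278 and 283 CPM in the wild type and 329, 338 and 332 in the knockout at passage 5, and at 291, 277 and 293 and 464, 454 and 454 at passage 10. Only the knockout rose by its own call, and the interaction was 0.42 ± 0.034 (adjusted p = 2.34e-24). For Phgdh the interaction was 0.36 ± 0.048 and for Aldh18a1 0.50 ± 0.059. Atf5, a transcription factor of the response, moved downward (-0.70 ± 0.21). The amino acid response element, to which ATF4 and C/EBP factors bind, was searched in the one spelling TTGCATCA. It lay in 294 of the 32851 windows (0.895%), in 6 of 18 list members with a window and in 3 of the 9 that were called. Slc7a11 (chr3:50443614-50443863, - strand) holds 2 copies, one on each strand, and Chac1 (chr2:119350992-119351241, + strand) holds 1, shown in capitals in the 250 bases before each start because both genes moved upward.
Slc7a11: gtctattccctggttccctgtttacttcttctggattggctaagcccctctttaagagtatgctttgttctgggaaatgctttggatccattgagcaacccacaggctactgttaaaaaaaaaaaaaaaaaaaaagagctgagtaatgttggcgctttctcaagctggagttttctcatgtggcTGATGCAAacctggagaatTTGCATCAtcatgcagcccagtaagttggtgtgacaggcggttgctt
Chac1: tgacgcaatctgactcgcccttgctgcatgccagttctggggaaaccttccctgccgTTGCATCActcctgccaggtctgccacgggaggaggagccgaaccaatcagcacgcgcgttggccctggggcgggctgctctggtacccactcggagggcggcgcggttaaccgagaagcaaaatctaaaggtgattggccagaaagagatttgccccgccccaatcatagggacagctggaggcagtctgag

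For inflammatory genes controlled by NF-kB the knockout effect moved downward. Of 19 tested, 14 were called downward and 2 upward (84.2% in all), with a median of -0.38; with all 21 libraries in the fit the counts were 10 and 1. The list's median knockout effect was 0.16 at passage 5 and -0.15 at passage 10. Its median change between passages was 0.292 in the wild type and -0.139 in the knockout. Cxcl1, a neutrophil-attracting chemokine, measured 75.5, 73.7 and 72.2 CPM in the wild type and 81.4, 82.7 and 75.1 in the knockout at passage 5, where the groups overlapped. At passage 10 it measured 88.9, 93.3 and 95.6 and 51.1, 54.3 and 48.1, and every knockout library was lower. The interaction was -0.97 ± 0.064 (adjusted p = 2.63e-33). Lcn2, an iron-scavenging antibacterial protein of inflamed epithelium, was far higher in the knockout at both passages, with 561 ± 16.9 CPM against 125 ± 1.6 and 525 ± 12.0 against 177 ± 4.2, and the gap narrowed by -0.59 ± 0.037 as the wild type rose. Cxcl5 (-0.31 ± 0.021) and Ccl20 (-0.61 ± 0.052), also chemokines of epithelium, reversed from a small excess in the knockout to a small deficit. Il1a, an alarmin of epithelial cells, moved upward (0.60 ± 0.058). Outside the list, Nos2, the inducible nitric oxide synthase, stood at 4.89, 5.58 and 4.86 CPM in the wild type and 49.1, 50.0 and 49.0 in the knockout at passage 5, and at 12.7, 11.6 and 14.1 and 20.2, 18.3 and 19.4 at passage 10. The knockout was higher at both passages and the excess shrank by -2.69 ± 0.14 on the log2 scale. In the antigen presentation list, 5 of 11 tested moved downward and 0 upward (1 with all 21 libraries in the fit), among them the class I heavy chains H2-K1 (-0.41 ± 0.037) and H2-D1 (-0.28 ± 0.033), which are near copies of each other and may share reads. Interferon response genes stayed near the background, with 1 upward and 2 downward calls among 16.

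A kappaB site, to which NF-kB dimers bind, was searched as GGGANTTTCC on both strands. It lay in 135 of the 32851 windows (0.411%), in 4 of 13 list members with a window and in 3 of the 12 that were called, Cxcl1, Cxcl2 and Nfkbia. The 250 bases before the start of the neighbouring genes Cxcl1 (chr5:90890995-90891244, + strand) and Cxcl2 (chr5:90903649-90903898, + strand) each hold it once, in capitals, and are shown because both chemokines moved downward.
Cxcl1: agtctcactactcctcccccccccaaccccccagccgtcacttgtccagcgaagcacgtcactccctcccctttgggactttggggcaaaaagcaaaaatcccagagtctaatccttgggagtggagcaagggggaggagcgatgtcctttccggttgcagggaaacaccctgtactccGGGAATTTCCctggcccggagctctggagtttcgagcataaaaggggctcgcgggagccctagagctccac
Cxcl2: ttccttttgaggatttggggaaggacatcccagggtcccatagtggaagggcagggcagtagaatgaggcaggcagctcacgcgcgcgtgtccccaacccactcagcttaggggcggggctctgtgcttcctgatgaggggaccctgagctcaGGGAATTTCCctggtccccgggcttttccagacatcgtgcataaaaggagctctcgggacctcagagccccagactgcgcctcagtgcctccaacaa

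YAP targets and regenerative genes, which mark fetal-like states of injured gut epithelium, moved upward for 11 of 18 tested and downward for 2, with a median of 0.29 (6 and 0 with all 21 libraries in the fit). Il33, an alarmin cytokine, measured 618, 629 and 627 CPM in the wild type and 242, 229 and 243 in the knockout at passage 5. The wild type of passage 10 held 358, 349.5 and 359.6 and the knockout 379, 368 and 364. A large deficit in the knockout became a small excess, since the wild type fell by 0.81 on the log2 scale and the knockout rose by 0.64, and the interaction was 1.45 ± 0.033 (adjusted p = 1.3e-102). Ccn2, a matricellular YAP target known as CTGF, reversed as well, from 164 ± 1.4 CPM in the wild type and 117 ± 2.7 in the knockout to 106 ± 2.1 and 178 ± 4.5 (1.23 ± 0.048). Msln, a surface glycoprotein (0.74 ± 0.023), and Krt7, a simple-epithelial keratin (0.42 ± 0.023), were lower in the knockout at both passages and less so at passage 10. Spp1, a secreted phosphoprotein, moved downward (-0.23 ± 0.069).

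Genes of drug, steroid and lipid handling held some of the largest shifts. Cyp1b1, a cytochrome P450 induced through the aryl hydrocarbon receptor (chromosome 17, 79701537 to 79715061), measured 1.14, 1.05 and 0.540 CPM in the wild type and 0, 0.260 and 0.0600 in the knockout at passage 5. The wild type then held 1.95, 1.80 and 2.76 at passage 10 and the knockout 9.32, 9.06 and 6.72. The knockout was the lower group at passage 5, on 6 counts against 40, a ratio of 8.18 in favour of the wild type (95% counting interval 3.45 to 23.6), and the higher group at passage 10, with an interaction of 4.87 ± 0.57 (adjusted p = 1.7e-13). Akr1c14, a hydroxysteroid dehydrogenase, stood at 8.17, 7.81 and 6.96 CPM in the wild type and 14.2, 14.6 and 14.4 in the knockout at passage 5, and at 21.7, 20.6 and 17.9 and 4.98, 4.39 and 3.39 at passage 10. The genotypes changed order (-3.16 ± 0.17). Ugt2b34 and Ugt2b35, glucuronosyltransferases of one gene family whose members may share reads, moved downward by -1.20 ± 0.035 and -2.42 ± 0.13. Ugt2b35 went from 16.3 ± 1.5 CPM in the wild type and 23.4 ± 1.9 in the knockout to 30.1 ± 0.86 and 8.12 ± 0.52. Ehhadh, a peroxisomal enzyme of fatty acid oxidation, was at 27.5 ± 1.3 CPM in the wild type and 18.7 ± 0.50 in the knockout at passage 5 and at 24.2 ± 0.80 and 5.90 ± 0.70 at passage 10 (-1.48 ± 0.13). Over the lists, 6 xenobiotic genes moved upward and 2 downward of 19, and 6 and 2 fatty acid oxidation genes of 17. With all 21 libraries in the fit the counts were 3 and 2, and 4 and 1. Unlike Ehhadh, the fatty acid oxidation and PPAR target genes Angptl4 (interaction 0.76), Cpt1a (0.38) and Acaa1a (0.36) moved upward.

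Several genes with no list carried shifts of similar size. Pdpn, the mucin-type glycoprotein podoplanin (chromosome 4, 143267431 to 143299564), measured 0.134, 0.0697 and 0.405 CPM in the wild type and 9.13, 8.72 and 6.96 in the knockout at passage 5, and 0.472, 0.449 and 0.416 and 0.255, 0 and 0.0547 at passage 10. High values were confined among these 12 libraries to the knockout at passage 5, where 450 counts stood against 9, a ratio of 40.7 (95% counting interval 21.3 to 89.7). At passage 10 the ratio was 4.27 in favour of the wild type on 23 counts against 5 (1.59 to 14.4), and the interaction was -7.31 ± 0.77 (adjusted p = 2.56e-16). F5, the gene of coagulation factor V (chromosome 1, 164151838 to 164220277), had 8.70, 8.78 and 8.38 CPM in the wild type and 2.47, 2.70 and 3.30 in the knockout at passage 5, and 5.37, 6.16 and 5.62 and 0.128, 0.0708 and 0 at passage 10. In the knockout of passage 10 it was at 3 counts against 295 in the wild type, a ratio of 91.4 (95% counting interval 31.0 to 446), and the interaction was -4.74 ± 0.52. Limma on log2(FPKM + 1) gave -0.18 for it, without a call (adjusted p = 0.248). Hunk, a serine/threonine kinase (chromosome 16, 90386013 to 90499553), had 0.0670, 0.0697 and 0.270 CPM in the wild type and 1.37, 1.25 and 1.44 in the knockout at passage 5, and 0 in each library and 10.0, 9.63 and 10.1 at passage 10. With the wild type of passage 10 at the floor of 3 counts over the group, the knockout was at least 171-fold higher there, against a ratio of 9.91 at passage 5 (95% counting interval 4.34 to 27.9). Counting intervals and floors cover counting error only.

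Enpp3, a cell-surface nucleotide pyrophosphatase (chromosome 10, 24772406 to 24842823), measured 80.4, 80.6 and 87.7 CPM in the wild type and 64.5, 64.4 and 64.7 in the knockout at passage 5, and 124, 123 and 119 and 11.1, 13.1 and 11.6 at passage 10. The deficit in the knockout went from -0.36 ± 0.045 to -3.36 ± 0.058, and the interaction was -2.996 ± 0.076 (adjusted p = 3.4e-94). The neutrophil-type surface protein Cd177 had 128, 131 and 125 CPM in the wild type and 347, 356 and 361 in the knockout at passage 5. The passage 10 values were 239, 250.3 and 249 and 208, 207 and 207, so the knockout changed from higher to lower (-1.71 ± 0.040). Plet1, a surface protein of progenitor cells, did the same (-1.39 ± 0.035), with 478 ± 15.0 CPM in the knockout against 255 ± 4.4 and later 249 ± 0.67 against 349 ± 7.1. Ulbp1, a stress ligand for the NKG2D receptor, went from 3.55, 3.69 and 2.30 CPM in the wild type and 9.07, 8.15 and 7.14 in the knockout to 3.01, 3.21 and 0.988 and 1.02, 0.921 and 0.875. One wild-type library of passage 10 lay among the knockout libraries, and the interaction was -2.67 ± 0.36. Car8, a carbonic anhydrase-related protein, reversed too (-2.11 ± 0.32), from 5.97 ± 0.71 CPM in the knockout against 2.74 ± 0.085 to 1.32 ± 0.44 against 2.56 ± 0.45. Sgsm1, a regulator of small GTPases, was lower in the knockout at both passages and more so at passage 10 (-2.41 ± 0.22).

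Among the genes that moved upward, Ggta1, the galactosyltransferase that makes the alpha-gal epitope, measured 43.1, 45.5 and 43.2 CPM in the wild type and 15.4, 15.6 and 13.9 in the knockout at passage 5, and 18.4, 17.5 and 21.3 and 29.5, 29.0 and 29.4 at passage 10. The genotypes changed order without overlap, with an interaction of 2.16 ± 0.11 (adjusted p = 1.55e-48). Snrpn, an imprinted gene of the spliceosome, had 6.90, 5.23 and 7.36 CPM in the wild type and 3.02, 4.05 and 3.00 in the knockout at passage 5, and 4.37, 4.43 and 4.94 and 9.64, 9.49 and 9.29 at passage 10. It too changed order (1.99 ± 0.22). Hmgn3, a nucleosome-binding protein (2.03 ± 0.25), and Ptgs1, the constitutive cyclooxygenase (1.80 ± 0.24), followed the same pattern. Lyz1, the Paneth-type lysozyme, whose reads its near copy Lyz2 may share, was higher in the knockout at both passages and more so at passage 10 (2.77 ± 0.46). Dse, which epimerizes dermatan sulphate, was lower in the knockout at passage 5, at 1.25 ± 0.32 CPM against 6.56 ± 0.47, and was 3.17 ± 0.61 against 3.57 ± 0.62 at passage 10 (2.23 ± 0.30). Clps, the gene of pancreatic colipase, stayed lower in the knockout and its deficit shrank by 2.61 ± 0.44.

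Proliferation genes and nuclear genes of oxidative phosphorylation were called in 16.7% and 17.4% of cases, against 20.3% over all genes. Among genes with a mean of at least 10 CPM the share was 26.6%. Of 24 proliferation genes, 3 moved upward and 1 downward, with 0 called when all 21 libraries were fitted. The replication helicase subunit Mcm3 was higher in the knockout at both passages, by 0.42 ± 0.037 and 0.65 ± 0.037, and the mitotic cyclin Ccnb1 by 0.54 ± 0.039 and 0.76 ± 0.037. Nuclear genes of oxidative phosphorylation gave 3 upward calls and 1 downward among 23, with a median of -0.00084. The 13 mitochondrially encoded mRNAs gave 0 upward and 5 downward calls (0 and 1 with all 21 libraries in the fit) and a median of -0.20. For mt-Nd5, a subunit of complex I, the knockout was at 3827 ± 156 CPM against 4206 ± 78.4 in the wild type at passage 5 and at 3374 ± 46.4 against 4271 ± 59.2 at passage 10 (-0.20 ± 0.030, adjusted p = 1.59e-05, or 0.655 with all 21 libraries in the fit). Targets of p53 gave 6 upward and 3 downward calls among 20 (2 and 0 with all 21 libraries in the fit). The death receptor Eda2r moved downward (-0.43 ± 0.062) and the stress hormone Gdf15 upward (0.96 ± 0.21). Cholesterol synthesis genes split 5 to 4 among 23, a called share of 39.1%, with 0 and 0 called when all 21 libraries were fitted.

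The series also holds knockout and wild-type organoids at passage 15. They entered none of the comparisons and only the fits with 18 or 21 libraries, and their levels are given here as a description. Among 33 genes, Gpx4 and Bhlha15, the 24 with the highest and lowest interactions, the 6 with the smallest adjusted p and Car8, all 3 knockout libraries of passage 10 lay outside the range of the knockout libraries of passages 5 and 15 for 19. Most of the 33 were chosen for their difference between passages 5 and 10, which favours such a position. The same held for 19.7% of all 14524 genes tested and for 48.0% of the 2952 called. The mean at passage 15 was nearer to passage 5 for 15 genes and nearer to passage 10 for 18. Muc5b was at 103 CPM in the knockout of passage 15, against 135 ± 1.3 at passage 5 and 8.49 ± 0.85 at passage 10, and Enpp3 at 43.5, against 64.5 ± 0.15 and 11.9 ± 1.0. Cyp1b1, high in the knockout of passage 10, was at 0 in all 3 knockout libraries of passage 15. Olfm4 behaved otherwise, at 0.697 CPM in the knockout, still lower than at passage 10, and Hunk remained high at 7.92. The wild type of passage 15 was at 1.07 CPM for Olfm4 and 0.044 for Cyp1b1, and for both genes the genotypes overlapped there. It was at 2.39 for Muc5b, 0.505 for Enpp3 and 1.36 for Hunk, below every knockout library of that passage.

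**Figure D5:**
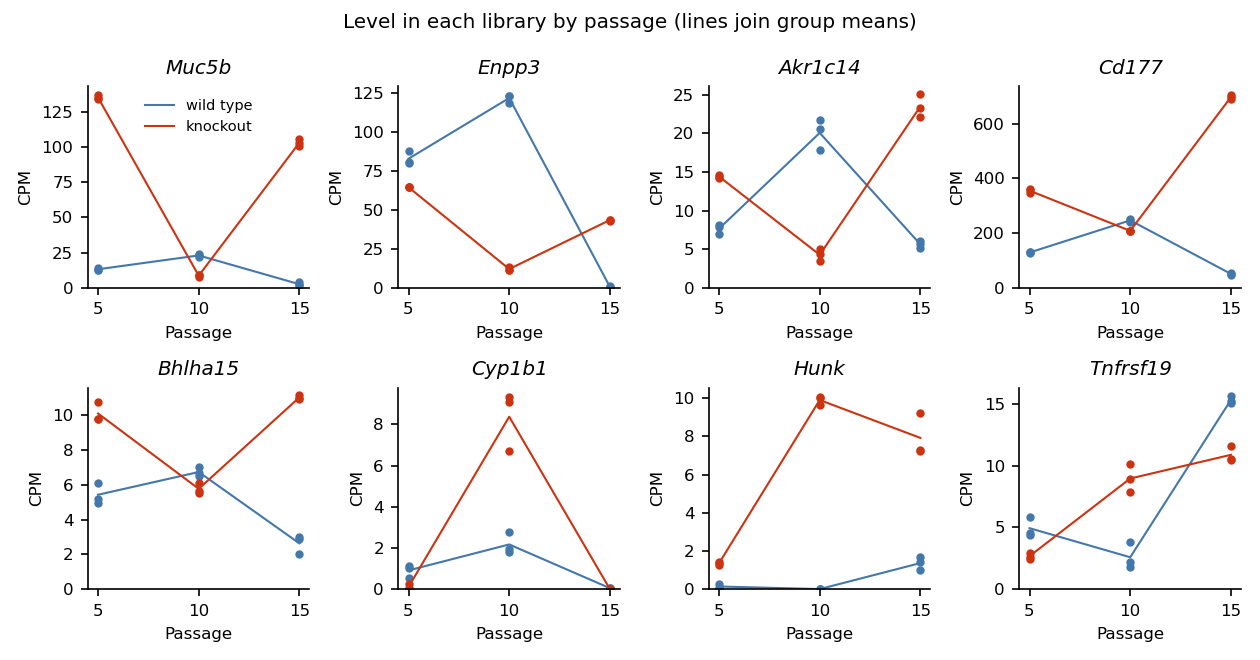
CPM by passage in the wild type (blue) and the knockout (red), with points for single libraries and lines joining group means, for 8 genes. Muc5b, Enpp3, Akr1c14, Cd177 and Bhlha15 dip in the knockout at passage 10 and are higher again at passage 15, Cyp1b1 peaks at passage 10, and Hunk and Tnfrsf19 stay high in the knockout at passage 15. For Tnfrsf19 the wild type of passage 15 is higher still, with a mean of 15.3 CPM against 10.9 in the knockout.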

How the data were processed

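RNA from 21 organoid libraries is in the deposited table of 56691 genes, and 12 of them, 3 in each of 4 groups assigned from the sample titles, entered the comparison. The other 6 libraries of the series, sorted cells of 2 diets, were not analysed here. The deposited values are raw read counts per gene as the authors counted them, and FPKM computed by the authors. The submitters' processing notes name cutadapt 1.9.1, HISAT2 2.2.1, HTSeq 0.6.1 and the build GRCm38.p5. The strand setting is not given in the sources used here, so reads of overlapping antisense genes cannot be told apart. The table's coordinates equalled those of GENCODE M21 (GRCm38) for 1435 of 52073 shared gene identifiers, so gene positions were taken from GENCODE M21.

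The test was edgeR 4.0.16 under R 4.3.3, on group means, with TMM scaling, filterByExpr (minimum count 10, minimum total 15) and the robust quasi-likelihood F-test, and p-values were adjusted by Benjamini-Hochberg over 14524 genes holding 99.88% to 99.89% of counts. Each SE was taken from the F statistic, as the absolute log2 fold change over its square root. The biological coefficient of variation was 2.57%. CPM of libraries outside the 12 was scaled by TMM over all 21. The fit used only the 4 groups because replicates of wild-type passage 15 spread more widely.

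The comparison and the gene lists were chosen with earlier results of these data known. Named genes are Gpx4 and Bhlha15, the 12 highest and 12 lowest interactions among called protein-coding genes with at least 5 CPM in a group and the same sign for every choice of 1 library per group, the 6 next smallest adjusted p-values, up to 4 called members per list with the most significant in the opposite direction, and the 6 largest reversals. Genes outside this rule are said to be. No set test was run. Alternatives were median ratio scaling, library totals, no filter, a floor of 1 on mean FPKM, limma 3.58.1 on log2(FPKM + 1) and log2(FPKM + 0.1), DESeq2 1.42.0, robust moderation off, a replicate block, 18 or 21 libraries and each library left out. On simulated counts for this comparison (14328 genes), 56.7% of 67 genes changed 1.5-fold, 71.6% of 67 changed 2-fold and 89.4% of 66 changed 4-fold were recovered. Of 155 calls, 6.45% were false. The counts were drawn independently for each library at the fitted dispersion, with only these genes changed. The shares assume independent libraries and need not carry over to the data, where far more genes were called.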

Additional observations from a re-analysis of the deposited data

Results flagged for a closer look

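The effect of the knockout differed between passages 5 and 10, by the test of the interaction itself, for 2952 genes. Among those with an effect called at each passage in opposite directions, 6 had the largest reversals, measured by the smaller of their 2 absolute effects. Their interactions were -7.31 for Pdpn, -4.80 for Muc5b, -3.97 for Muc13, -2.67 for Ulbp1, -2.11 for Car8 and 4.87 for Cyp1b1. Pdpn went from 8.27 ± 1.2 CPM in the knockout to 0.103 ± 0.13, and Cyp1b1 from 0.107 ± 0.14 to 8.37 ± 1.4. Muc5b was the most abundant of the 6, and its 3 knockout libraries lay above every wild-type library at passage 5 and below every one at passage 10. Groups of 3 are too small for a test of single outlying libraries, so none was made.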

How the results depend on the processing

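All 157 called genes selected by the rule for named genes kept their direction under each of the alternatives that gave them a value, and 92 of them stayed called under all of these. Of the 65 that lost the call in at least 1, 64 lost it with all 21 libraries in the fit. That fit shares 1 estimate of the spread with wild-type passage 15, and it gave 897 interaction genes, 473 upward and 424 downward, with 102 reversals in place of 321. It gave 4547 genes for the knockout at passage 5, 738 between passages in the wild type (2692 otherwise) and 1150 in the knockout (3222 otherwise). Without wild-type passage 15, 18 libraries gave 3017. Limma on log2(FPKM + 1) called 980 genes upward and 109 with a difference of 2-fold or more (398 otherwise), and with a pseudocount of 0.1 it called 961 upward. A mean FPKM of at least 1 left 179 with a 2-fold difference. DESeq2 called 2350, no filter 2529, median ratio scaling 2936 and library totals alone 2954, with 47.5% of calls upward in place of 54.5%. Leaving out 1 library gave 2648 to 2881 interaction genes and 277 to 324 reversals. Genes picked outside the rule were not followed through the alternatives. Low counts limit single genes, such as Vim, which held 24 to 67 counts per group and lost its call in 11 of 22 alternatives. Ndufa4, with a small interaction of 0.23, lost its call in 13 of 23.

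Same-numbered libraries did not deviate together (correlation of deviations -0.025 to 0.052 in 18 pairs). With replicates this close, a pairing could go unseen, so whether the numbers pair the libraries is not known. With the replicate number as a block, 2958 genes were called.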

Other observations

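Some smaller gene groups have not been described. Imprinted genes gave 3 upward and 1 downward calls among 11 tested (1 and 1 with all 21 libraries in the fit). Besides Snrpn, Peg3, a paternally expressed zinc finger gene, rose in the knockout from 10.9 ± 0.56 to 16.3 ± 1.6 CPM, while the wild type was at 7.75 ± 1.1 and 7.45 ± 0.69 (0.64 ± 0.17). Plagl1, a paternally expressed growth regulator, changed order between genotypes, at 20.9 ± 0.081 CPM in the wild type and 28.5 ± 2.6 in the knockout at passage 5 and at 28.8 ± 2.2 and 18.8 ± 1.3 at passage 10 (-1.05 ± 0.11). The X-linked gene Rhox5, often silenced by DNA methylation, was at 3.05 ± 1.1 CPM in the wild type of passage 5 and under 1 CPM in the other 3 groups (3.24 ± 0.73). The tight junction genes Cldn2 (0.59 ± 0.036) and Cldn4 (0.66 ± 0.079) moved upward, and in the knockout Cldn2 was at 328 ± 4.3 and 349 ± 3.0 CPM while the wild type fell from 283 ± 4.0 to 201 ± 5.1. Among ligands of the EGF receptor, Areg moved upward (0.57 ± 0.096) and Ereg downward (-1.22 ± 0.38).

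Immediate early and heat shock genes split 4 upward and 8 downward among 17 (3 and 4 with all 21 libraries in the fit). The transcription factors Fos (-0.32 ± 0.031) and Egr1 (-0.25 ± 0.030) moved downward, and Ier3, a regulator of cell survival (0.61 ± 0.045), and the chaperone Hsp90aa1 (0.26 ± 0.025) upward.

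After the value of Cyp1b1 was seen, other classic targets of the aryl hydrocarbon receptor were looked up. Cyp1a1 held 75 counts over the 3 knockout libraries of passage 10 and 1 over the wild type, a ratio of 80.7 (95% counting interval 14.1 to 3230), and 0 in both groups of passage 5. Ahrr, the repressor of the receptor, held 26 and 4 counts at passage 10, a ratio of 7.00 (2.43 to 27.6). Ahrr did not pass the filter. Cyp1a1 passed it and was called in the knockout at passage 10 (5.86 ± 0.78, adjusted p = 1.1e-11 in edgeR's quasi-likelihood test). With both groups of passage 5 at 0 its interaction could not be estimated, and no call was made (adjusted p = 0.9998).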
